A study of Mus musculus with 10 samples.

Results

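The transcripts described here are the predicted RefSeq non-coding RNAs on a mouse liver expression array. Members were all non-control probes whose identifier carries an accession of the XR_ series, which stands inside a longer RefSeq identifier on this array. They number 12146 probes of 97836, each printed as 2 spots and each with its own accession. The study compared liver RNA of 5 control mice (wild type, regular diet) with that of 5 hyperlipidemic mice, which were ApoE-/- on a diet enriched in fat (15%) and cholesterol (2.5%). All mice were C57BL/6J males aged 42 days. Genotype and diet changed together and cannot be told apart, and the allele is carried in every cell type. Each sample was hybridised to 1 one-colour array with Cy3. The labels name liver as source, yet their protocol text is that of a blood RNA kit with depletion of globin and their molecule entry is DNA, a conflict they leave unsettled. They do not say whether the samples of a group were taken independently, and p-values cover only the spread among them.

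RefSeq gives XR accessions to non-coding transcripts that its annotation pipeline predicts from aligned RNA evidence, before any curation. Most are long non-coding RNAs, which are transcribed by RNA polymerase II, often spliced, and typically less abundant and more tissue-restricted than messenger RNAs. In liver some long non-coding RNAs lie against or beside genes of lipid, bile acid and drug metabolism, and apolipoprotein E, the protein missing in the hyperlipidemic mice, lets the liver take up lipoprotein remnants from blood.

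By unversioned accession, 3816 of the 12146 probes matched 3481 genes of a RefSeq gene table (GRCm38.p6). Of these probes 3811 were of class long non-coding RNA, 3 were protein-coding and 2 were miscellaneous RNA. The other 8330 probes have no entry in that table and are named by accession only. The array headers name mm9, so the table served for names and neighbouring genes.

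The promoters below, chosen among transcripts with a promoter window, are those of Gm42375, which had an unadjusted p under 0.05, and of its neighbour Cyp2a4, of Gm40656, a transcript with separated groups, and of Gm31828, a bright transcript shown for contrast. Each is the 300-base RefSeq window of GRCm38.p6 around a gene's start, printed 5′ to 3′ on that gene's strand. Capitals mark the core of a TATA box (TATAAA), the CCAAT box and the spacing of a STAT site (TTCNNNGAA), each sought on either strand, so TTTATA is the TATA core read on the other strand. None of these motifs overlapped another in the printed windows. The first pair shows Gm42375, at chr7:26307163-26307462 (minus strand), and Cyp2a4, at chr7:26306942-26307241 (plus strand), whose windows face each other and share 79 bases. Gm40656 lies at chr13:4251915-4252214 (plus strand). Gm31828 lies at chr4:93481346-93481645 (minus strand).
Gm42375: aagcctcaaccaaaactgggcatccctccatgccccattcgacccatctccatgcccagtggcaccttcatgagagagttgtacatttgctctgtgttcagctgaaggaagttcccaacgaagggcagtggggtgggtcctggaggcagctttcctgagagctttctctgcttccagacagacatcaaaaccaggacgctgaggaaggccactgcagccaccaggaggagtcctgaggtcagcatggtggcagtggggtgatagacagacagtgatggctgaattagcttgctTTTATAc
Cyp2a4: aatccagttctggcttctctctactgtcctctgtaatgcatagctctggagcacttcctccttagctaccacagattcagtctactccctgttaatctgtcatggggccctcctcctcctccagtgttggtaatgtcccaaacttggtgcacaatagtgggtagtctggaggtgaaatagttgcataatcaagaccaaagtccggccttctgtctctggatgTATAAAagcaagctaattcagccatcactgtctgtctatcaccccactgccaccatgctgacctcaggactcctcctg
Gm40656: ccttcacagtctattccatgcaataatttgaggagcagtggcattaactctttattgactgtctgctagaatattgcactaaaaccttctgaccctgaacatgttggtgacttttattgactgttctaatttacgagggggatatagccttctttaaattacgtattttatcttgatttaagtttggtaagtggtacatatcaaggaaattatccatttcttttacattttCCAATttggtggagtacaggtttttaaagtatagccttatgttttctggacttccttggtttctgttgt
Gm31828: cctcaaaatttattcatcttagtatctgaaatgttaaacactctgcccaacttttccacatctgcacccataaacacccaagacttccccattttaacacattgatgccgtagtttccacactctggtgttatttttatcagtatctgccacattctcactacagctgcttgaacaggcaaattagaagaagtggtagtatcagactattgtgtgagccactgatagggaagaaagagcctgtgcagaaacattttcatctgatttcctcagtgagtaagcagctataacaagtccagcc

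In the first pair the same 6 bases, chr7:26307164-26307169, are capitalised in both windows, as TATAAA on the strand of Cyp2a4 and as TTTATA on that of Gm42375. The annotated genes overlap by 21 bases at their starts, and the rest of Gm42375, which spans 2792 bases, runs away from Cyp2a4. Gm40656 held 1 CCAAT and Gm31828 held none of the 3 motifs. A match is a description of the letters and not a bound site.

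Promoter windows were on hand for 2546 genes with an XR probe. Their mean GC content was 47.7% (SD 8.54), against 53.6% (SD 11.3) over all 27025 genes of the table. GGGCGG, the core of the GC box, was present on either strand in 12.6% of them and in 35.9% of all genes. TATAAA was present in 18.0% against 14.2%, CCAAT in 36.1% against 37.9% and TTCNNNGAA, the core spacing of a STAT site, in 9.98% against 8.47%. The detected transcripts differed little from the undetected ones in these respects: the 298 genes with a probe detected on all 10 arrays had a GC content of 48.8% with GGGCGG in 13.8%, and the 1485 genes detected on none had 47.8% with 12.3%. Curated and protein-coding genes make up much of the table, and no test was made.

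Most predicted transcripts were not well above background in these livers. A probe was taken as detected on an array when at least 1 of its usable spots was well above background by the scanner software's flag. With the software's looser flag, for a positive and significant signal, the share of XR probes averaged 54.5% in control and 49.7% in hyperlipidemic livers. On control replicates 1 to 5, 23.4%, 15.6%, 19.5%, 35.1% and 18.99% of XR probes were detected, and on hyperlipidemic replicates 1 to 5, 20.8%, 17.6%, 16.4%, 21.6% and 20.9%. Control replicate 4 stood above all other arrays, the next highest being 23.4%, and the groups overlapped. Over the 85690 other probes the shares ran from 35.4% to 52.3%, and control replicate 4 was highest there as well. The median share per array was 20.2% for XR probes, 26.6% for NONCODE, 27.0% for curated RefSeq non-coding RNAs, 22.7% for RIKEN clones and 56.6% for catalogue probes. It was 23.8% for Ensembl-named probes and 14.2% for the 373 ultraconserved probes, which lay below XR probes on every array.

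**Figure D1:**
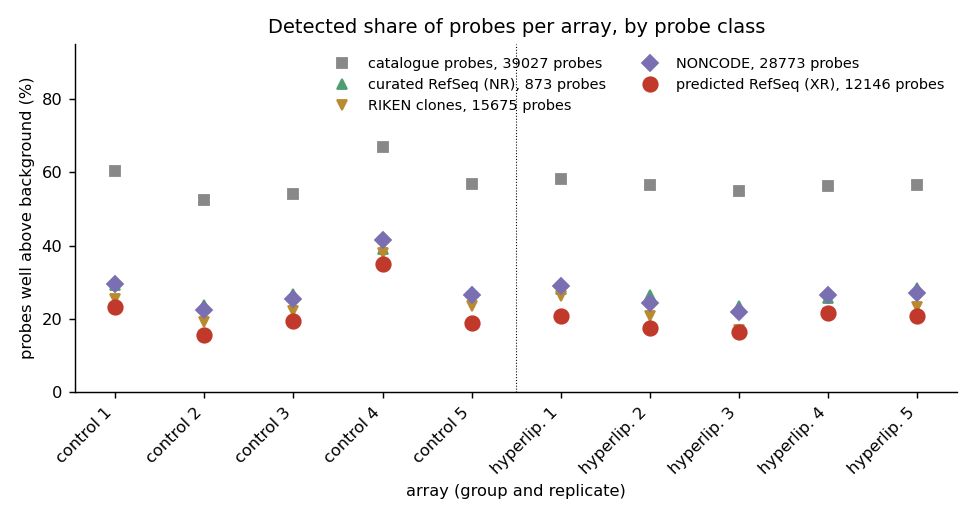
Percent of probes well above background on each array (vertical axis) for 5 probe classes, with arrays by group and replicate on the horizontal axis and a dotted line between the groups. XR probes lie between 15.6% and 35.1%, below the other classes shown on every array, and control replicate 4 is the highest array in each class. Ultraconserved probes, which are lower than XR probes, and Ensembl-named probes are not shown.

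The detected share averaged 22.5% ± 7.57 (SD, n = 5) in control and 19.5% ± 2.33 (SD, n = 5) in hyperlipidemic livers. The difference of -3.02 percentage points lay within the spread between arrays (two-sided exact permutation test over arrays, p = 0.532). Without control replicate 4 the difference was 0.129 points and p = 0.952 by the same exact test, so its direction rested on that array. All other probes moved by -2.68 points (exact p = 0.492). In bulk tissue, fewer cells of a type and less RNA per cell cannot be told apart.

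The same transcripts tended to be detected or undetected across arrays. Of the 12146 probes, 7126 (58.7%) were detected on no array and 1427 (11.7%) on all 10. Another 1659 were detected on exactly 1 array, and 1025 of these (61.8%) were detected on control replicate 4 alone, with 201 on hyperlipidemic replicate 4 alone and 110 on hyperlipidemic replicate 5 alone. With control replicate 4 left out, 8151 probes were detected on none of the 9 remaining arrays and 1428 on all 9. Probes with a gene and probes without one were alike in this, with 11.03% and 12.1% on all arrays.

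**Figure D2:**
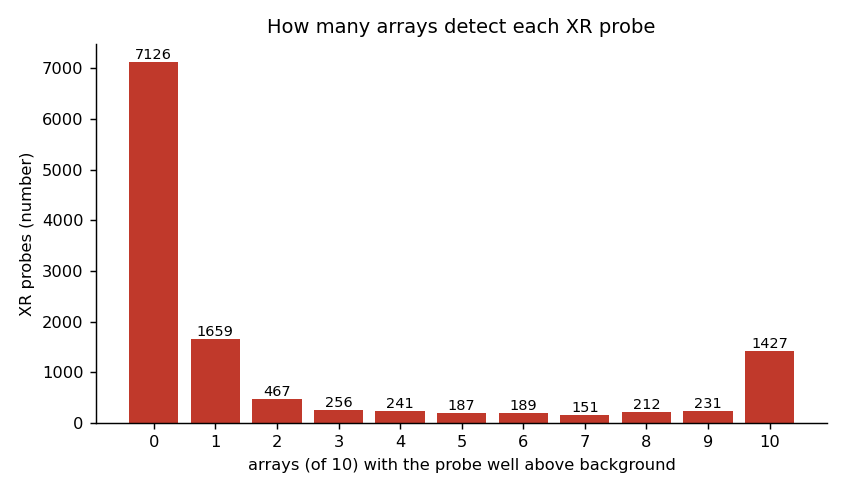
Number of XR probes (vertical axis) by the count of arrays, of 10, on which the probe was well above background (horizontal axis). The counts pile up at both ends, with 7126 probes on no array and 1427 on all 10.

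Where a transcript lies relative to coding genes went with little difference in the share detected on all 10 arrays. Of 2816 matched probes whose gene overlaps no coding gene, 11.3% were detected on all 10 arrays. For the 534 that overlap a coding gene on the opposite strand the share was 9.74%, and for the 53 on the same strand 11.3%. For 408 more, with 10.8% on all 10 arrays, the table gives an overlap without enough strand information. The shares detected on no array were 61.6% without a coding overlap and 59.4% on the opposite strand. They were 50.9% for the 53 on the same strand and 56.1% for the 408. Only 12 matched probes have a microRNA gene inside their gene. Of these, Gm39696, which holds Mir6348, was detected on all 10 arrays and differed by 0.07 (SE 0.18). Nr6a1os, the antisense transcript that holds Mir181a-2 and Mir181b-2, had 3 probes, detected on 8, 9 and 1 arrays. Its 2 tested probes differed by 0.02 and -0.28, and neither passed. The transcripts that hold Mir216a, Mir217, Mir135a-1, Mir202 and Mir195b were detected on no array.

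Levels are given as log2 intensity relative to the 75th percentile of the array's own non-control spots, so 0 is that percentile. Probes differ in how well they hybridise, and a level is compared only between arrays for the same probe. For testing, a probe had to be detected on at least 4 of 5 arrays in at least 1 group, which 2130 XR probes met (17.5% of all), 619 of them with a gene and 1511 without. A probe that passed only through the group where it was brighter is among these. The levels of the tested XR probes ran from -1.65 at their 5th percentile over -0.18 at the median to 3.87 at the 95th, with a maximum of 10.01. Within groups the SD of a probe had a median of 0.43, against 0.39 over all 33080 tested features.

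Spread followed brightness. In the dimmest 533 of the tested XR probes the median SD between arrays of a group was 0.49, and the duplicate spots on 1 array differed with a median SD of 0.37. In the brightest 533 these were 0.38 and 0.09. Over the 2130 probes, arrays correlated pairwise with Pearson's r from 0.851 (control replicate 4 with hyperlipidemic replicate 3) to 0.977, with a median of 0.935. This is a description across probes of arrays that share their design, and probes are not independent replicates.

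Among the 12 gene-matched probes chosen for the highest mean on all 10 arrays were both probes of Gm26535, together with Gm31828, beside the tumour suppressor candidate Tusc1, Gm39162, Gm31648, Gm39852, 1700055L01Rik, Gm35147, Gm39648, Gm33527, Gm30360 and Gm35195. For Gm31828, whose promoter is printed above, the control arrays read 8.47, 8.75, 8.44, 7.95 and 8.71 and the hyperlipidemic arrays 8.37, 8.60, 8.60, 8.13 and 8.16. The groups overlapped almost wholly, with a difference of -0.09 (95% interval -0.54 to 0.36). The first probe of Gm26535 read 9.48, 9.64, 9.46, 8.97 and 9.65 in control and 9.22, 9.43, 9.92, 10.00 and 9.72 in hyperlipidemic livers. Here too the groups overlapped. Over all 12 probes the differences ran from -0.23 (Gm33527) to 0.67 (Gm39648), and none passed the test.

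Gm39648, which overlaps Gm973, had the widest gap of these 12. Its control arrays read 5.24, 5.46, 5.70, 4.70 and 5.71 and its hyperlipidemic arrays 4.93, 5.27, 6.19, 7.23 and 6.52. Hyperlipidemic replicates 3 to 5 lay above every control array, while replicates 1 and 2 lay among the controls. Those 3 arrays also form one of 3 sets by the ratio of the spiked-in control RNAs. With spike-in set as a block the difference of 0.67 became -0.10. That fit compares only control replicates 4 and 5 with hyperlipidemic replicates 1 and 2, so the 3 high arrays do not enter its difference. The part of the spike-in set in the result was not tested.

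The 6 gene-matched probes with the widest spread within groups are given next. Gm34128, beside Septin9, read between -0.47 and 0.55 in control, and 0.00, -0.13, 1.08, 3.81 and 2.30 in hyperlipidemic livers. Its difference of 1.20 (95% interval -0.09 to 2.50) did not pass the test and became -0.11 with spike-in set as a block. That block again leaves hyperlipidemic replicates 3 to 5 out of the comparison. Gm35019, beside Rrm2b, the p53-inducible ribonucleotide reductase subunit, read 1.69, -0.74, 1.05, 2.97 and -1.01 in control and 1.59, -0.07, -0.91, -0.80 and -0.79 in hyperlipidemic livers. Control replicate 4 was its highest array, and its difference of -0.99 became 1.22 within the slide that held both groups. Gm39548 on the X chromosome differed by -0.74, Gm31551 beside Nell2 by 0.81, Gm35957 beside Hivep3 by 0.06 and Gm36169 by 0.92, none past the test.

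The arrays sat on 3 slides: control replicates 1 to 4 on the first, control replicate 5 with hyperlipidemic replicates 1 to 3 on the second, and hyperlipidemic replicates 4 and 5 on the third. By the spike-in ratio they formed control replicates 1 to 3, then control replicates 4 and 5 with hyperlipidemic replicates 1 and 2, then hyperlipidemic replicates 3 to 5. Both divisions follow the groups in part, and a slide block rests on the comparison of 1 control array with 3 hyperlipidemic arrays. A spike-in block rests on the comparison of control replicates 4 and 5 with hyperlipidemic replicates 1 and 2 alone. Of the 28 cell-type markers listed for the check of tissue, only Hnf4aos, the antisense RNA of the hepatocyte regulator Hnf4a, had a named probe; it was detected on all 10 arrays, at 0.82 to 2.05. The other 27 were not analysed here, so the labelled tissue was not checked against them.

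The comparison asked which non-coding transcripts differed between hyperlipidemic and control liver. No predicted RefSeq transcript did so at an adjusted p under 0.05 in limma with Benjamini-Hochberg adjustment over all 33080 features: 0 of 2130 were higher and 0 lower, where 0.0393% of all features were called higher and 0.0242% lower. With an unadjusted p under 0.05 there were 58 higher and 87 lower XR probes, or 2.72% and 4.08%, against 2.91% and 2.91% of all features. The median difference was -0.02 over XR probes and 0.02 over all features. A difference beyond 2-fold in either direction was fitted for 30 XR probes, or 1.41%, against 1.004% of all features.

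Lower transcripts outnumbered higher ones among the dim probes, and so did lower features of all kinds at those levels. In the dimmest 533 probes 41 were lower and 19 higher by that rule, while in the brightest 533 there were 7 lower and 15 higher. Over all features at the levels of the dimmest XR probes, 8.08% were lower and 3.88% higher, and at the levels of the brightest, 1.1% were lower and 2.47% higher. Lower XR transcripts no longer outnumbered higher ones by much with quantile normalization (74 higher, 79 lower). These were 3.47% and 3.71% of XR probes, against 3.77% and 3.21% of all features. They did not outnumber them with array weights (79 higher, 75 lower), at 3.71% and 3.52% against 2.99% and 4.24%. Nor did they with only probes detected on all arrays (43 higher, 40 lower), at 3.01% and 2.80% against 3.29% and 1.95%. Where that rule also asked for 2-fold or more, 11 were higher and 13 lower, or 0.516% and 0.61% of the XR probes, against 0.366% and 0.496% of all features. The median difference was -0.10 in the dimmest and 0.05 in the brightest. Without control replicate 4 the counts at an unadjusted p under 0.05 were 48 higher and 56 lower. These were 2.45% and 2.85% of XR probes, against 2.10% and 3.38% of all features. Without hyperlipidemic replicate 1 the counts were 78 and 172, or 3.78% and 8.35%, against 4.56% and 5.17%. Both the counts and the shares over all features thus moved with single arrays. The 95% intervals, which are not adjusted for the number of probes, had a median half-width of 0.56.

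**Figure D3:**
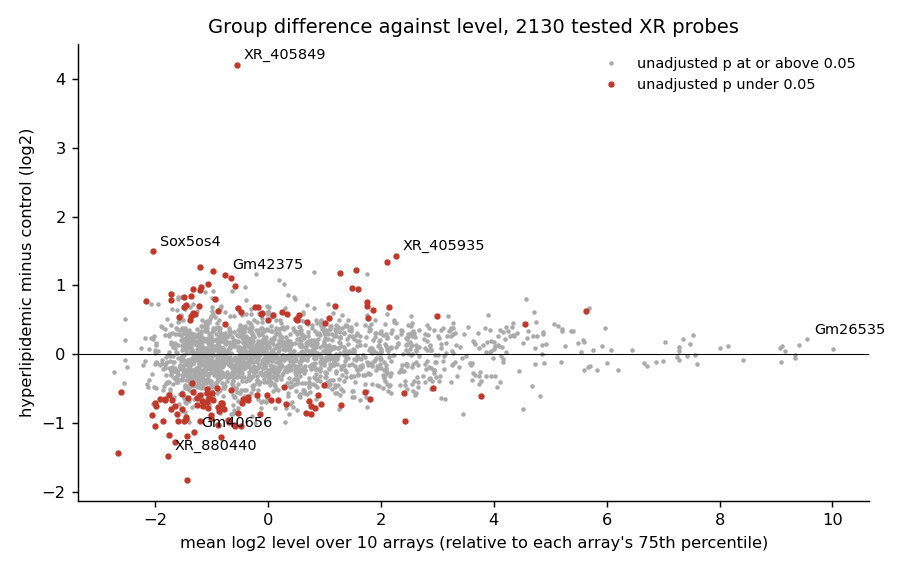
Fitted difference, hyperlipidemic minus control in log2 units (vertical axis), against the mean log2 level over 10 arrays (horizontal axis) for each of the 2130 tested XR probes. Red points have an unadjusted p under 0.05 and none has an adjusted p under 0.05; XR_405849 lies alone at 4.20, and the bright probes on the right lie near 0.

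Complete separation of the groups was seen for 10 XR probes higher and 16 lower in hyperlipidemic liver, or 0.469% and 0.751% of those tested, beside 0.593% and 0.378% of all features. The transcript with the smallest unadjusted p was Gm42375, a predicted long non-coding RNA that starts inside the start of Cyp2a4, a steroid-hydroxylating cytochrome P450 of liver. Control arrays read -1.43, -1.57, -0.91, -1.36 and -1.45 and hyperlipidemic arrays -0.16, 0.04, -0.46, -0.22 and -0.13. Every hyperlipidemic array lay above every control array, and the probe was detected on 4 of 5 control and 5 of 5 hyperlipidemic arrays. The difference was 1.16 (SE 0.19, 95% interval 0.74 to 1.57), a 2.23-fold higher level.

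Its adjusted p in limma was 0.0503, which is just outside the threshold. It passed under 5 of 24 alternatives, among them quantile normalization (adjusted p = 0.0269 in limma) and a filter that asks both spots to be above background (adjusted p = 0.0411), and the adjusted p ranged from 0.0269 to 0.9999 over all 24. The both-spots filter, used alone and with 1 probe per gene, was chosen after the data were seen. With slide as a block the difference was 1.25 (SE 0.36), and with spike-in set as a block 1.34. With normexp background correction, which had an offset of 50, it was 0.48. That setting also gave 0.36 for Sox5os4 and -0.32 for XR_880440, dim probes described below with main differences of 1.49 and -1.47. Not every named probe shrank under it. The sequence of the Gm42375 probe was not used here, so whether it also sees RNA of the opposite strand was not tested. The level of Cyp2a4 itself was not analysed here.

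The other named transcripts that separated upward were Sox5os4, antisense to the transcription factor gene Sox5, Gm35071, Gm32914, XR_405935 and XR_375781. Sox5os4 read -1.94, -2.94, -3.05, -4.11 and -1.88 in control, where 1 of 5 arrays detected it, and -1.67, -0.83, -1.03, -1.34 and -1.60 in hyperlipidemic livers, where all 5 did. The fitted difference was 1.49 (SE 0.37, adjusted p = 0.451 in limma), and 0.71 with slide as a block. Since 4 of its 5 control values were not well above background, this difference is not a measured fold. XR_405935 read 1.89, 2.14, 1.70, 0.02 and 1.97 in control and 2.98, 3.70, 2.70, 2.97 and 2.54 in hyperlipidemic livers. Control replicate 4 was its lowest array, and the difference of 1.43 (SE 0.37, adjusted p = 0.467 in limma) was 1.05 without it.

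The rest were smaller. Gm32914, a bright probe, read 4.26, 4.33, 4.26, 4.06 and 4.39 against 4.46, 4.78, 4.69, 4.45 and 4.48, which separated the groups at a difference of only 0.31 (95% interval -0.06 to 0.69). Gm35071 differed by 0.60, which was 0.25 with spike-in set as a block, and XR_375781 by 0.71, which was 0.32. For both, hyperlipidemic replicates 3 and 4 were the highest arrays, and these do not enter the comparison under the spike-in block.

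Downward, XR_880440 had the smallest unadjusted p of the separated probes. It read -1.28, -0.90, -1.02, -1.04 and -0.96 in control, where all 5 arrays detected it, and -2.13, -2.84, -3.54, -2.19 and -1.84 in hyperlipidemic livers, where none did. Since the hyperlipidemic level is not well above background it is only bounded, and control was at least 1.41-fold higher, a mean of the control arrays set against the higher of the array's lowest detected signal and the probe's own. The fitted difference was -1.47 (SE 0.29, adjusted p = 0.144 in limma). XR_874781 read -0.12, -0.41, -0.26, -0.04 and -0.16 against -0.77, -1.31, -0.89, -1.28 and -1.68. It was detected on all but 1 array, and its difference of -0.99 (SE 0.21) had an adjusted p of 0.205 in limma.

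Gm40656 lies beside Akr1c12, an aldo-keto reductase of the family that reduces steroids and aldehydes, with 9.71 kb between them. Its control arrays read -1.01, -1.20, -0.60, -0.37 and -0.54 and its hyperlipidemic arrays -1.87, -1.52, -2.48, -2.24 and -1.25. The groups did not overlap, though control replicate 2 and hyperlipidemic replicate 5 were close. The difference was -1.13 (SE 0.26, adjusted p = 0.319 in limma), and -1.42 with slide as a block. Gm39732 read -0.15, 0.48, -0.35, -0.01 and -0.33 against -1.15, -1.34, -2.06, -0.45 and -0.55, a difference of -1.04 (SE 0.30). Its 2 arrays of the third slide lay closest to the controls.

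The remaining separated transcripts with a name were Gm39201 beside the endothelin receptor gene Ednra, Gm41920 overlapping Farp2, Gm40387 between Lsm3 and the taurine transporter gene Slc6a6, Gm39394 and Gm40169. Their differences were -0.57, -0.51, -0.91, -0.45 and -0.42, with adjusted p from 0.756 to 0.830 in limma. The difference of Gm39201 became -0.13 with slide as a block. The difference of Gm40387 was -0.52 without hyperlipidemic replicate 3, its lowest array, and 1 of 5 hyperlipidemic arrays detected it.

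**Figure D4:**
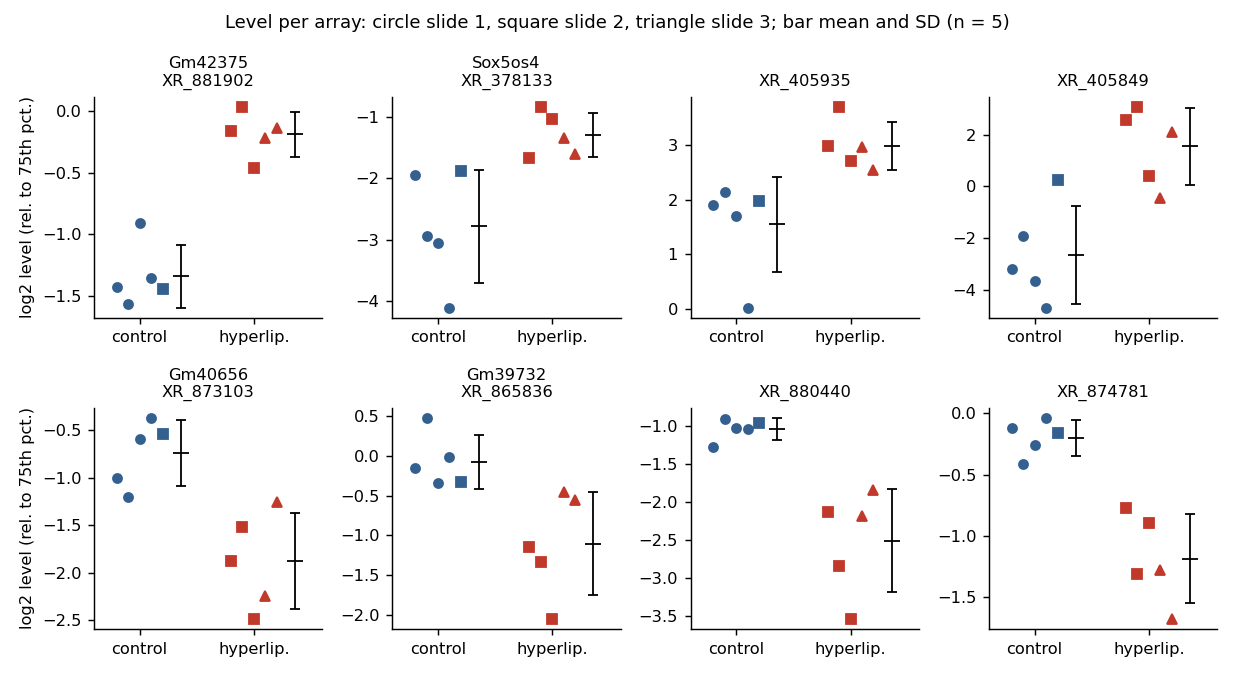
Log2 level on each array (vertical axes, relative to the array's 75th percentile) in control (blue) and hyperlipidemic (red) livers for 8 XR transcripts, with the marker's shape giving the slide and the bar giving mean and SD (n = 5). Groups do not overlap except for XR_405849, where the control array on the second slide, at 0.25, lies above the lowest hyperlipidemic array.

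The next 3 transcripts, XR_405849, XR_376124 and Gm12762, were chosen after their values were seen. XR_405849 had a fitted difference of 4.20 (SE 0.84, adjusted p = 0.155 in limma), but only 1 of 5 control arrays measured it and the other control values were not well above background, so this is not a measured fold. It read -3.22, -1.94, -3.68, -4.69 and 0.25 in control and 2.57, 3.08, 0.42, -0.45 and 2.12 in hyperlipidemic livers, where all 5 arrays detected it. The single control array that detected it, replicate 5, was also the only control on the second slide. The difference was 1.77 with slide as a block. Without control replicate 5 it was 4.93 and passed (adjusted p = 0.0127 in limma), but none of the control arrays left had detected the probe. The probe entered the test only through the hyperlipidemic arrays. It is one of the accessions without an entry in the gene table.

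XR_376124 had the lower values in hyperlipidemic livers, at -2.61, -1.94, -1.29, -1.92 and -1.91 in control and -3.49, -2.60, -3.60, -3.74 and -3.44 in hyperlipidemic livers, where no array detected it. The fitted difference was -1.44 (SE 0.27), and it passed only when hyperlipidemic replicate 2 was left out (adjusted p = 0.0379 in limma). Its hyperlipidemic level was not well above background and the control mean lay below the lowest signal detected there, so no fold can be given; it entered the test only through the control arrays. Gm12762, beside the glycolytic enzyme gene Gpi1, was too dim to be tested. It read -4.07, -3.21, -2.99, -4.61 and -3.64 in control, where no array detected it, and -1.63, -0.87, -1.33, -1.88 and -1.48 in hyperlipidemic livers, where 3 did. With no filter on detection it was the only XR probe past the threshold (fitted difference 2.26, adjusted p = 0.0309 in limma). Only 3 of the 5 hyperlipidemic values were well above background, so the level there was not measured throughout and no fold is given. By the naming rule, Gm33363 was also included: it was detected on all 5 control and no hyperlipidemic arrays, with a fitted difference of -0.89 and overlapping groups. For the same reason as with XR_376124, no fold can be given.

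Where a gene carried several XR probes, their differences could be set side by side, though such probes share the array and often transcript sequence. Several tested probes were on hand for 18 of the 598 genes tested. Their differences lay apart by a median of 0.23 and at most 0.90, and had the same sign in 10 genes. Both probes of Gm30262, which overlaps 4933440J02Rik, were higher by 0.99 (SE 0.28) and 0.95 (SE 0.33). The first read -1.01, -0.89, -0.80, -1.92 and -0.72 against 0.18, 0.44, -0.18, -0.76 and -0.08, so that only hyperlipidemic replicate 4 reached the control range. The second read 1.07, 1.35, 1.14, 0.41 and 1.62 against 2.86, 2.66, 1.30, 1.33 and 2.16, again with replicates 3 and 4 lowest. Neither passed, with adjusted p of 0.580 and 0.769 in limma.

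All 4 probes of Gm34667 lay below 0, at -0.67, -0.45, -0.32 and -0.17. The last became 0.03 with spike-in set as a block. For Gm38456 the 3 probes disagreed, at -0.66, 0.24 and 0.01, the widest gap of the 18 genes.

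Liver genes were approached through 12 lists: lipid and cholesterol metabolism, bile acids, cytochromes P450 and drug metabolism, secreted hepatocyte proteins, hepatocyte transcription factors, acute phase, circadian clock, stress response, fibrosis, blood cells, other liver cell types and established long non-coding RNAs. A total of 90 XR probes belong to genes that are members, overlap a member or lie next to one. Of these, 12 were detected on all 10 arrays and 53 on none, where the shares over all XR probes were 11.7% and 58.7%. The 17 tested probes had a median difference of 0.12, against 0.02 over all features, and 10 were above 0, as were 17591 of the 33080 features. None passed, and 1, Gm42375, had an unadjusted p under 0.05, against 2.91% higher and 2.91% lower of all features.

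In lipid and cholesterol metabolism, 16 of 21 XR probes were detected on no array, against 58.7% of all XR probes. These undetected neighbours include transcripts beside Scarb1, the HDL receptor, Fgf21, a fasting hormone of liver, and Pparg. Of the 3 tested, Gm29917 lies beside Fads2, the desaturase of polyunsaturated fatty acid synthesis, and overlaps Fads3. It read -1.54, -1.13, -1.68, -1.01 and -0.98 in control and -0.50, -1.08, -0.88, -0.94 and -1.03 in hyperlipidemic livers. The groups overlapped, with a difference of 0.38 (95% interval -0.07 to 0.83). Gm42312, beside the lipid droplet coat protein gene Plin2, differed by 0.12 and Gm33530, beside the lipase gene Pnpla3, by -0.01.

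Around the genes of secreted hepatocyte proteins, 10 of 14 probes were detected on no array, against 58.7% of all XR probes, and 2 were tested. Gm35999, beside albumin (Alb), read -0.12, 0.03, -0.32, 0.21 and 0.17 in control and 0.09, -0.24, -0.69, -0.37 and -0.14 in hyperlipidemic livers, a difference of -0.27 (95% interval -0.70 to 0.17). Gm12909, between the major urinary protein genes Mup3 and Mup21, differed by -0.26. The only bile acid neighbour, Gm30843, overlaps the organic anion transporter gene Slco1a1 and was detected on all 10 arrays, at -0.04 (95% interval -0.70 to 0.63). Gm38678, which overlaps the hepatocyte regulator gene Onecut1, differed by -0.24 and read 2.40 on control replicate 5, above all other arrays; with slide as a block it was -1.41.

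Of the stress list, 4 of 5 probes were detected on all arrays, against 11.7% of all XR probes. Gm31535 and Gm31475 flank Srxn1, the sulfiredoxin induced by oxidative stress. The 2 probes of Gm31535 differed by 0.34 and 0.43 and turned to -0.24 and -0.10 with slide as a block, and Gm31475 gave -0.01. The transcript 8030431J09Rik, beside the catalase gene Cat, differed by -0.41 (95% interval -0.89 to 0.07). Beside the clock repressors, Gm35359 (Bhlhe40) gave 0.19 and Gm32675 (Bhlhe41) 0.28. Gm32650, which overlaps the chemokine gene Ccl5, gave 0.02, Gm31355, between the smooth muscle actin gene Acta2 and Fas, 0.13 and Gm39984, beside the long non-coding RNA gene Zfas1, 0.36.

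Of 6 probes beside or overlapping markers of Kupffer, endothelial and bile duct cells, 4 were detected on no array, against 58.7% of all XR probes, and 0 were tested.

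**Figure D5:**
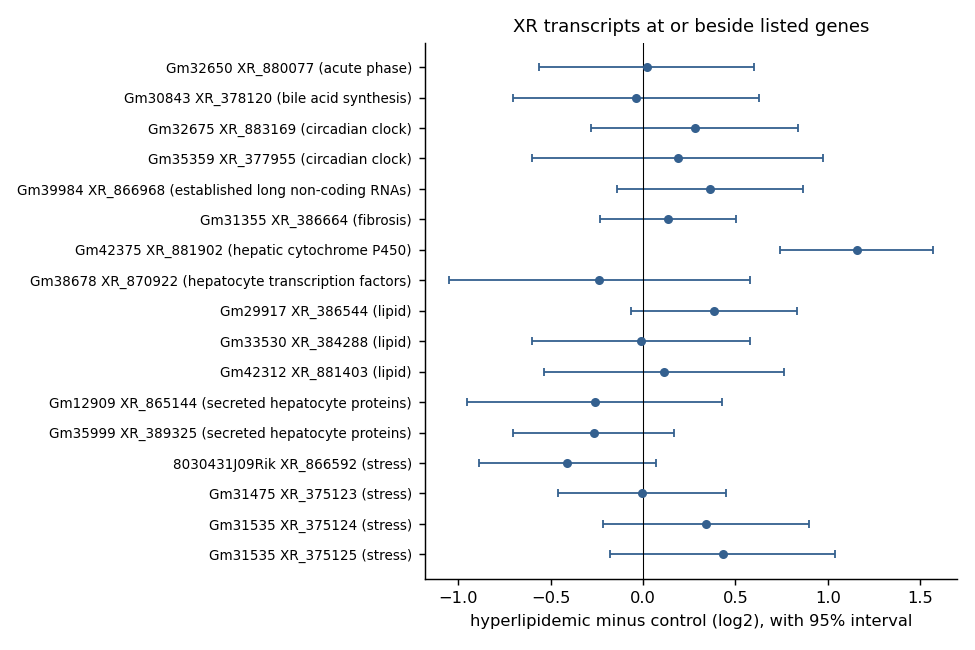
Fitted difference, hyperlipidemic minus control in log2 units with its 95% interval (horizontal axis), for the 17 tested XR probes that belong to, overlap or neighbour a listed gene (vertical axis, with the list in brackets). The interval of Gm42375, 0.74 to 1.57, is the only one that does not include 0.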

How the data were processed

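Scanner files of 10 arrays were analysed, where the authors had used Agilent Feature Extraction, per the file headers, to obtain a background-subtracted intensity for each spot. The authors' deposited log2 value table equalled these values plus a constant per array and was an alternative. The RNA protocol conflict in the labels was not resolved. Control and outlier-flagged spots were left out, which cost 24 XR probes (12122 remained), and a probe's level is the mean log2 of its spots minus the array's 75th percentile. Each probe was 1 feature. The comparison used limma 3.58.1 (lmFit, eBayes; R 4.3.3), was two-sided, and adjusted p by Benjamini-Hochberg over 33080 features with 0.05 as threshold, and 95% intervals come from it. On simulated arrays of 33080 features the comparison of hyperlipidemic with control recovered 27 of 100 XR probes changed 2-fold and 76 of 100 changed 4-fold, with 3 false calls. The simulated noise was independent for each probe and array, without effects of slide, spike-in set or single arrays. These figures therefore give no error rate for the real arrays. The number of arrays limits precision.

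The members and lists were chosen with earlier results of these data known. Named were, per direction, the 8 gene-matched and 2 unmatched probes of smallest p whose groups did not overlap and whose higher group was detected throughout, up to 4 tested probes per list, the 12 with the highest mean, the 6 with the widest spread, the 4 genes with most probes, and gene-matched probes detected on 5 arrays of one group and 0 of the other. Replicates were numbered in accession order, which pairs no samples. Alternatives covered scaling, background, filter, slide, spike-in set, probes per gene, weights, prior and each array left out. Normexp (offset 50) used median spot signals, where mean signals had been planned. Results for some listed genes are not reported here.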

Additional observations from a re-analysis of the deposited data

Results flagged for a closer look

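In 9 of 124 groups of 5 values, 1 array lay far from the other 4 of its group. A rate of 1 in 20 would give 6.2. Many of these probes were chosen by their values and all share the same arrays, so no excess can be read from that figure. On control replicate 4, XR_405935 read 0.02 (others 1.70 to 2.14), the first probe of Gm26535 8.97 (others 9.46 to 9.65), Gm35195 4.75 (others 5.27 to 5.44) and the first probe of Gm30262 -1.92 (others -1.01 to -0.72). Control replicate 5 read -0.98 for Gm39201, against -0.68 to -0.61 on the others. Hyperlipidemic replicate 3 was lowest for Gm40387, at -3.45 (others -1.69 to -1.29), and highest for Gm31475, at -0.58 (others -1.32 to -1.16). Hyperlipidemic replicate 4 read -0.09 for Gm38678 (others 0.81 to 1.15), and hyperlipidemic replicate 2 read -2.59 for XR_376124 (others -3.74 to -3.44).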

How the results depend on the processing

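The counts of XR probes past the threshold, 0 higher and 0 lower, stayed at 0 except that 1 was higher with quantile normalization, the robust prior, both-spots detection (30263 features tested), both-spots detection with 1 probe per gene (30244 features, chosen like the former after the data were seen) and no filter (96123 features), Gm42375 in the first 4 and Gm12762 in the last. Leaving out 1 array gave 0 to 1 higher and 0 to 1 lower. An unadjusted p with 2-fold gave 11 higher and 13 lower, against 0.366% and 0.496% of all features. Among the named probes, 0 to 1 passed under these settings. The 58 higher and 87 lower at an unadjusted p became 167 and 204 with no filter (1.38% and 1.68% of XR probes, against 1.97% and 2.08% of all features), 20 and 32 with slide as a block (0.939% and 1.502%, against 0.759% and 1.08%), 29 and 18 on the slide with both groups alone (1.36% and 0.845%, against 1.26% and 0.698%), 30 and 49 with spike-in set as a block (1.41% and 2.30%, against 3.71% and 1.15%), and 43 and 40 with the filter on all arrays (3.01% and 2.80%, against 3.29% and 1.95%). Leaving out 1 array gave 35 to 82 higher and 56 to 172 lower, against 2.03% to 4.56% and 1.89% to 5.17% of all features. The median difference of -0.02 became 0.14 with no filter, against 0.10 over all features. The detected-share difference of -3.02 points ranged from -4.75 to 0.129 when 1 array was left out. Of 61 named probes, 34 kept their sign under every setting in which they were tested, which was 18 to 25 of 25, none that turned passed the threshold, and the cause was not tested. With array weights, the sign turned, to 0.17 for Gm30843, 0.19 for Gm38678, 0.0319 for the third probe of Gm34667 and -0.0275 for the third probe of Gm38456. With the deposited value table, the sign turned, to 0.000364 for Gm33530 and 0.00459 for Gm31475. With normexp, the sign turned, to -0.00244 for Gm32650, 0.033 for Gm30843, 0.0287 for Gm31475, -0.12 for Gm35957 and -0.00882 for the third probe of Gm38456. With the percentile over always-detected probes, the sign turned, to -0.052 for Gm32650, -0.00783 for Gm35957 and -0.058 for the third probe of Gm38456. With quantile normalization, the sign turned, to 0.0301 for Gm33530 and 0.0386 for Gm31475. With slide as a fixed block, and likewise on the slide with both groups alone, the sign turned, to -0.23 for Gm32675, -0.10 for Gm42312, 0.21 for Gm33530, -0.24 for the first probe of Gm31535, -0.10 for the second probe of Gm31535, 0.45 for Gm31475, -0.13 for the first probe of Gm26535, -0.20 for the second probe of Gm26535, -0.26 for Gm39162, -0.24 for 1700055L01Rik, -0.24 for Gm39648, 0.43 for Gm39548 and 1.22 for Gm35019. With slide as a random block, the sign turned, to 0.0157 for Gm33530 and 0.0254 for Gm31475. With spike-in set as a block, the sign turned, to -0.44 for Gm32650, -0.76 for Gm35359, -0.0203 for Gm32675, -0.49 for Gm42312, 0.19 for Gm31475, -0.0341 for the second probe of Gm26535, 0.16 for Gm31828, -0.12 for Gm39162, -0.16 for 1700055L01Rik, -0.10 for Gm39648, -0.20 for Gm30360, -0.49 for Gm31551, -0.11 for Gm34128, -0.36 for Gm35957, -0.23 for Gm36169, 0.0288 for the fourth probe of Gm34667 and 0.36 for the first probe of Gm38456. Leaving out 1 array gave ranges of -0.0182 to 0.407 for Gm30360, -0.199 to 0.158 for Gm30843, -0.135 to 0.0739 for Gm31475, -0.0968 to 0.194 for Gm32650, -0.147 to 0.101 for Gm33530, -0.00881 to 0.428 for Gm35359, -0.344 to 0.708 for Gm35957, -0.114 to 0.145 for the third probe of Gm38456, -0.496 to 0.104 for Gm38678, -0.0584 to 0.374 for Gm42312.

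No paired analysis was possible because replicate numbers follow accession order only. Signal over background limits the dim probes, whose duplicate spots differed most.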
